A study of Mus musculus with 4 samples.

Results

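The paternally methylated imprinted loci H19, Meg3 and Rasgrf1 were followed in mouse embryonic fibroblasts during the first 96 hours of reprogramming. Members were CpGs with at least 10 reads in each of 4 libraries inside 4 windows on mm9: the H19 control region at chr7:149764000-149772000, the Dlk1-Meg3 intergenic region at chr12:110762000-110769000, the Meg3 start at chr12:110778000-110782000 and a region upstream of Rasgrf1 at chr9:89764000-89780000. This gave 22 of the 1045368 CpGs that met the read minimum across the genome, with 6 in the H19 window, 6 in the intergenic window, 8 at the Meg3 start and 2 in the Rasgrf1 window. The assay was reduced representation bisulfite sequencing (RRBS), in which DNA is cut at MspI sites (CCGG), short fragments are kept, and unmethylated cytosines are converted by bisulfite. All 4 groups were secondary fibroblasts with inducible reprogramming factors, from a 129/SvJ x C57/B6 hybrid, with 1 library each. The control was uninduced. The other groups were held in doxycycline for 96 hours and had divided 0 times, 1 time or more than 3 times on average, and are called the undivided, once-divided and much-divided libraries; the last cohort is written as >3 in one label and as 3 or more in another. Cells were grown in 10% serum, and treatment was with doxycycline in 15% serum or starvation in 0.5% serum. Which cohort was starved is not stated, so serum and induction cannot be told apart. The control cells carry the inducible factors as well. The number of animals or cultures behind a library is not given in the sources used here.

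Imprinted genes are expressed from only one parental copy, and the choice is set by methylation laid down in one germ line. At H19, a noncoding RNA expressed from the maternal copy, the control region is methylated on the paternal copy, which keeps the insulator protein CTCF off it and lets Igf2, a growth factor gene, be expressed from that copy. At the Dlk1-Meg3 domain the intergenic region carries the germline mark on the paternal copy, and the start of Meg3, a noncoding RNA of the maternal copy, takes on methylation later. Rasgrf1 encodes a Ras exchange factor, and methylation of a region upstream of it goes with expression of the paternal copy. RRBS reads here were not assigned to a parental copy, so a CpG that is methylated on one copy only should give about equal numbers of methylated and unmethylated reads.

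The Meg3 start is the window whose members could be given a distance from a known transcript start. The RefSeq promoter of Meg3 (GRCm38.p6, chr12:109540746-109541045, plus strand; 250 bases before the start of the transcript and 50 after) is shown because its CpGs, in capitals, could be laid on the deposited positions by their spacing. All 11 CpGs listed within its length fell on CpGs of the sequence at a single placement, against at most 3 at any other placement within 1 Mb of the window centre where every listed CpG also fell on one.
Meg3 promoter: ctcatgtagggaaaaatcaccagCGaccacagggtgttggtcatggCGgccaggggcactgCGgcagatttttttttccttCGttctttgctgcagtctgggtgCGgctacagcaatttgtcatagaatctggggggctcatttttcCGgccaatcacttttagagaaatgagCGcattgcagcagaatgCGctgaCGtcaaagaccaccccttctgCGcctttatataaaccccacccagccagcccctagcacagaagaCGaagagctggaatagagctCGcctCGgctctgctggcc
The sequence holds 13 CpGs and 1 MspI site, CCGG, which occurs in 52.8% of 32851 RefSeq promoters of this length. It also holds 1 match to the cyclic AMP response element TGACGTCA, whose reverse complement is the same; 1.79% of the promoters have a match. The CpG of that match was listed in only 2 libraries with 1 read each, so its level was not measured. With this placement the first transcribed base lies at position 110779205 of the deposited tables, and the 8 members of the window lie from 722 bp before it to 319 bp after it. None of these members lies within the printed sequence, and no CpG within it had at least 10 reads in every library. RefSeq promoters were looked up for 6 genes and found for Igf2, Meg3, Dlk1, Dio3 and Rasgrf1. No promoter was printed for H19.

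Libraries held 84606824 reads over CpGs in control, 86782772 in the undivided, 84954702 in the once-divided and 94775128 in the much-divided library. At the members the median coverage was 49.5, 47.5, 46 and 26.5 reads in the same order, and the lowest coverage was 23, 15, 35 and 11 reads. The much-divided library also differed in which sites it covered. At tested CpGs under 5% methylation over the pooled libraries it had 1.65 times the reads of control, and at those over 80% it had 0.720 times. Over the members it had 330 methylated and 393 unmethylated reads, against 795 and 352 in control. The part of this shift in coverage in the results below was not tested. With 1 library per group, every test below compares 2 libraries and not the conditions. Intervals cover counting error only, and reads without molecular identifiers are not independent molecules. Intervals of window means treat CpGs as independent, but neighbouring CpGs may share fragments, so these intervals may be too narrow.

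Among the members, only those of the H19 window held levels between 30% and 70% in control. There 5 of 6 CpGs were in that range, against 0 of 6 in the intergenic window, 0 of 8 at the Meg3 start and 0 of 2 in the Rasgrf1 window; over all tested CpGs of control the share was 9.77%. The mean level in control was 63.4% ± 10.2 (SD over 6 CpGs) in the H19 window, 93.6% ± 9.94 (6 CpGs) in the intergenic window, 87.0% ± 5.48 (8 CpGs) at the Meg3 start and 2.42% ± 3.42 (2 CpGs) in the Rasgrf1 window. The levels outside the H19 window were thus far from equal numbers of methylated and unmethylated reads. Within it, the control Wilson intervals at 149767091 (69.9%, 58.6% to 79.2%) and 149767290 (80%, 69.6% to 87.5%) also lay above equal numbers. No mm9 annotation was used, so whether a CpG lies in the part of a window that carries the imprint is not assigned here.

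**Figure D1:**
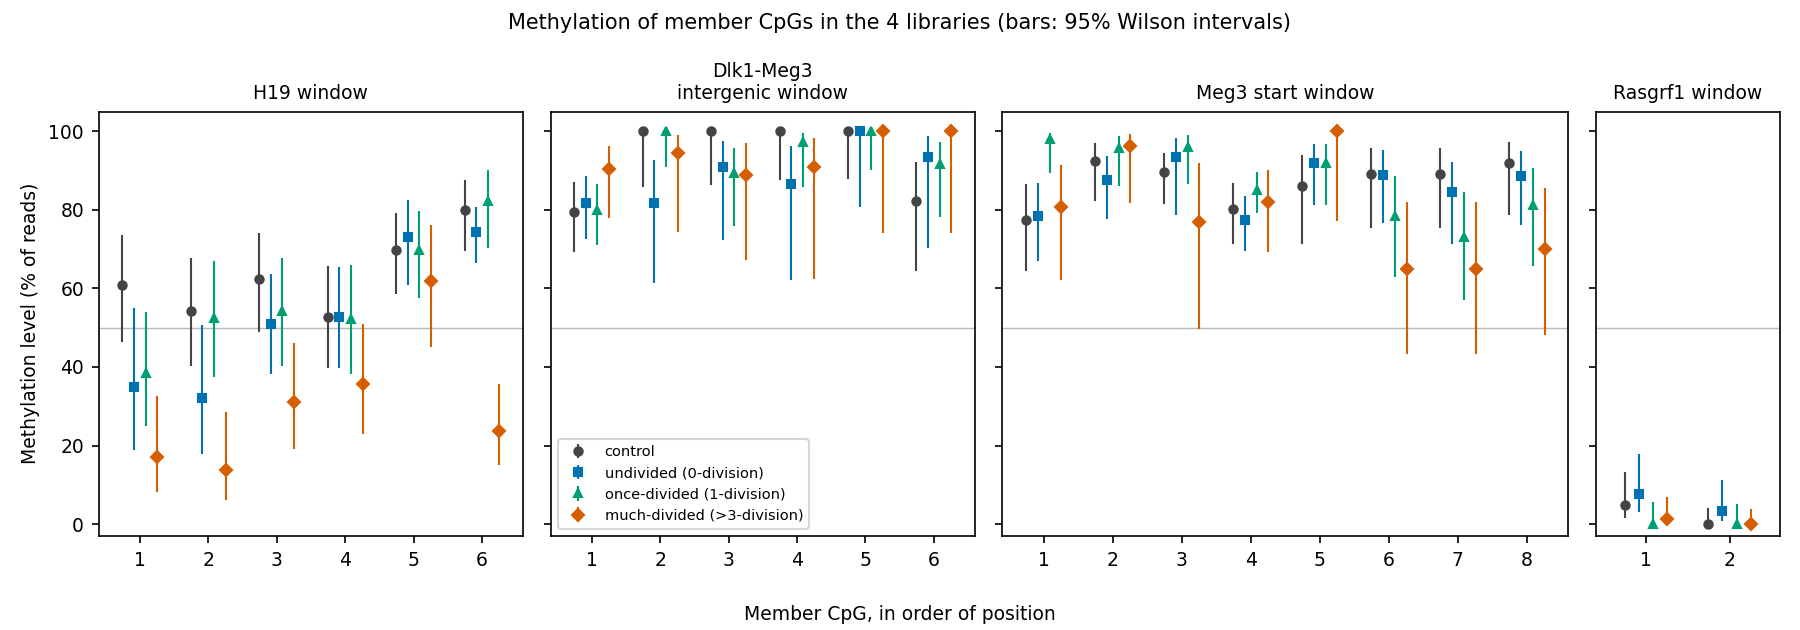
Methylation level (percent of reads, vertical axis) of each of the 22 member CpGs in order of position (horizontal axis), by window; symbols are the 4 libraries, bars are 95% Wilson intervals and the grey line marks equal numbers of methylated and unmethylated reads. The much-divided library is below control at all 6 CpGs of the H19 window, and both Rasgrf1 CpGs stay under 10% in all 4 libraries.

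H19 lost methylation in the much-divided library. In a bulk library, loss in each cell and a change in the mix of cells cannot be told apart. The mean over its 6 CpGs was 63.4% in control, 53.0% in the undivided, 58.2% in the once-divided and 30.5% in the much-divided library. The last differed from control by -32.8 points (95% interval -40.3 to -25.3) and from the undivided library by -22.4 points (-30.4 to -14.5). With reads pooled over the window the latter was -31.8 points. All 6 CpGs were lower than control. So were 50.9% of all tested CpGs, and 70.1% of autosomal CpGs between 30% and 70% in the pooled undivided and once-divided reads. Of autosomal CpGs over 70% in those reads, 66.6% were lower. The H19 CpGs at 149767091 and 149767290 belong to that last class. By Fisher's exact test (two-sided) 3 of the 6 were called, with Benjamini-Hochberg adjustment over all tested CpGs (adjusted p under 0.05 and at least 20 points). These were the only calls among the 22 members in this comparison, and all were losses; 3.05% of all tested CpGs were called lower in the same comparison.

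The largest difference was at a single CpG at position 149767290. It was methylated in 60 of 75 reads in control, 104 of 140 in the undivided, 46 of 56 in the once-divided and 15 of 63 in the much-divided library. The first 3 libraries thus stood between 74.3% and 82.1% with overlapping Wilson intervals, and the much-divided library at 23.8% (15.0% to 35.6%). The difference from control was -56.2 points (-67.8 to -40.4; adjusted p = 1.10e-08, Fisher's exact test), and that from the undivided library was -50.5 points (-61.4 to -36.3; adjusted p = 7.72e-09). This was the only member CpG called against the undivided library, where 3.22% of all tested CpGs were called lower. Its class was autosomal CpGs over 70% in the pooled undivided and once-divided reads. Of that class, 4.58% were called lower than the undivided library and 4.22% lower than control. Unmethylated reads at this CpG numbered 48 in the much-divided library against 15 in control, while methylated reads numbered 15 against 60.

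Its nearest member was not called. That CpG, at position 149767091, was methylated in 51 of 73 reads in control, 46 of 63 in the undivided, 44 of 63 in the once-divided and 21 of 34 in the much-divided library. The levels were 69.9%, 73.0%, 69.8% and 61.8%. The difference of the much-divided library from control was -8.10 points with an interval of -27.2 to 10.2 points, so neither no change nor a fall of over 20 points is outside it. Beside it, at the lower position 149767046, a CpG missed the read minimum in 2 libraries: it was methylated in 22 of 32 reads in control, 4 of 7 in the undivided, 15 of 16 in the once-divided and 1 of 7 in the much-divided library.

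The other 4 CpGs of the H19 window form a cluster of 78 bp, from 149764069 to 149764146. A cluster here is a run of at least 3 tested CpGs at most 100 bp apart, with reads summed over them. It was methylated in 114 of 198 reads in control (57.6%, Wilson interval 50.6% to 64.3%), 74 of 161 in the undivided (46.0%, 38.4% to 53.7%), 85 of 171 in the once-divided (49.7%, 42.3% to 57.1%) and 39 of 155 in the much-divided library (25.2%, 19% to 32.5%). Control was highest and the much-divided library lowest, and only the interval of the latter lies apart from those of the other 3. The difference from control was -32.4 points (-41.5 to -22.3; adjusted p = 4.42e-08, Fisher's exact test over 99566 clusters), and that from the undivided library was -20.8 points (-30.7 to -10.3; adjusted p = 0.00123). Of all clusters, 11.0% were called lower than control and 11.2% lower than the undivided library (adjusted p under 0.05 and at least 10 points).

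Within this cluster the 2 CpGs at the low end were called. The members called against control numbered 1 in place of 3 when counts were scaled down by the overdispersion between control and the once-divided library, and 2 when each CpG was thinned to equal coverage. The CpG at 149764069 was methylated in 28 of 46 reads in control, 8 of 23 in the undivided, 15 of 39 in the once-divided and 6 of 35 in the much-divided library; the last differed from control by -43.7 points (adjusted p = 0.00470, Fisher's exact test). Its neighbour at 149764095 went from 25 of 46 reads in control to 5 of 36 in the much-divided library, a difference of -40.5 points (adjusted p = 0.00815, Fisher's exact test), with 9 of 28 and 21 of 40 in the undivided and once-divided libraries. The CpGs at 149764143 and 149764146 were at 62.3% and 52.8% in control and at 31.0% and 35.7% in the much-divided library, and neither passed the adjusted test (adjusted p = 0.0793 and 0.652, Fisher's exact test). Neighbouring CpGs may share fragments, so these 4 may not be independent measurements.

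**Figure D2:**
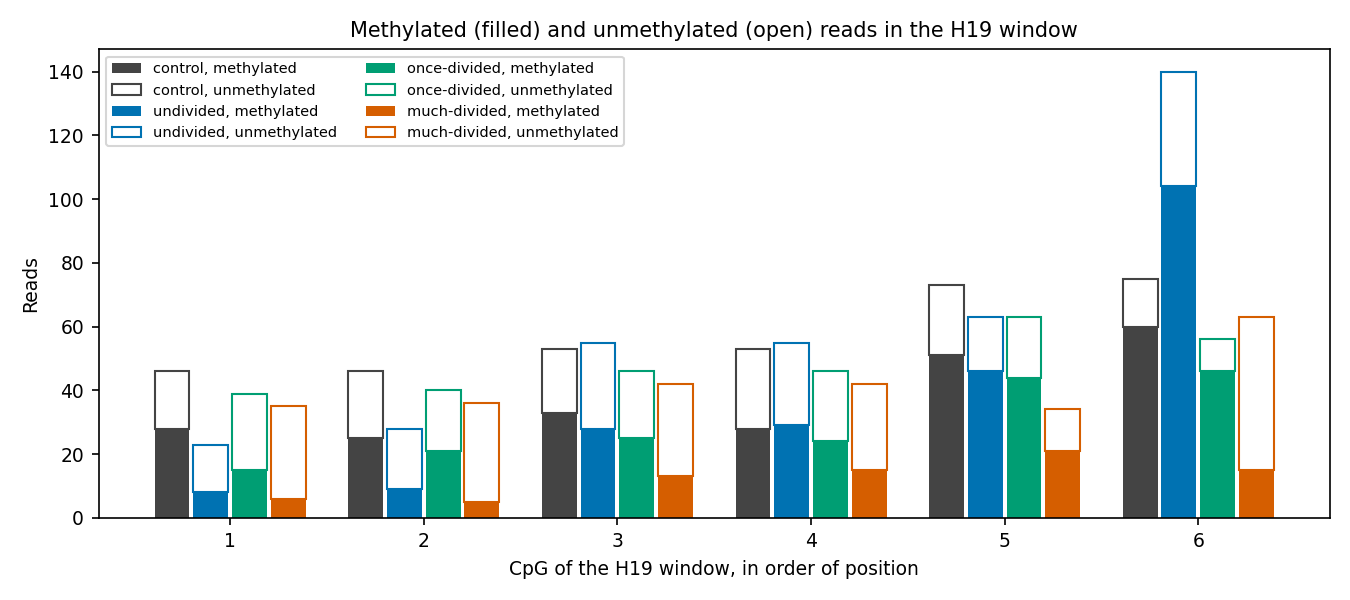
Number of reads (vertical axis) at each of the 6 member CpGs of the H19 window in order of position (horizontal axis), with methylated reads filled and unmethylated reads open, for the 4 libraries. At the last CpG the much-divided library has 15 methylated and 48 unmethylated reads, where control has 60 and 15.

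Read numbers over the H19 window moved in both classes. Summed over the 6 CpGs, methylated reads were 225 in control, 224 in the undivided, 175 in the once-divided and 75 in the much-divided library, which is 0.333 times control in the last. Unmethylated reads were 121, 140, 115 and 177, which is 1.46 times control in the last. The reads of the much-divided library at CpGs under 5% methylation across the genome were 1.65 times those of control. Relative to that depth the unmethylated reads of the window were 0.888 times and the methylated reads 0.202 times control. At CpGs over 80% the reads were 0.720 times those of control, and relative to that depth both values would be higher. Which scale applies to a window at intermediate levels was not tested.

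In cells that had not divided or had divided once, H19 differed less from control. The window mean differed by -10.4 points in the undivided library (-18.1 to -2.64) and by -5.12 points in the once-divided library (-12.7 to 2.47). With reads pooled over the window the former was -3.49 points, and with a minimum of 5 reads the latter was 0.18 points. In each of these comparisons 5 of the 6 CpGs were lower than control, but some hardly differed. The smallest of these differences were -0.10 points in the undivided and -0.02 points in the once-divided library. Of all tested CpGs 38.1% and 39.1% were lower in the 2 comparisons. Of autosomal CpGs between 30% and 70% in the pooled undivided and once-divided reads, 52.4% and 51.2% were lower. Of those over 70% in the same reads, 50.7% and 47.6% were lower. None of the 22 members and none of the 3 member clusters was called in either comparison by Fisher's exact test. At an unadjusted p under 0.05 there were 1 CpG and 1 cluster in each, and neither CpG was in the H19 window. In the undivided library they were the intergenic CpG at 110764887, which was lower than control, and the H19 cluster. In the once-divided library they were the Meg3 start CpG at 110778483, which was higher than control, and the Meg3 start cluster. The share of all tested features at that unadjusted p was not counted. The share of all tested CpGs called in either direction was 0.0108% for the undivided and 0.00373% for the once-divided library, and that of clusters was 0.770% and 0.347%. The H19 cluster differed by -11.6 points in the undivided library (-21.7 to -1.23; adjusted p = 0.263, Fisher's exact test) and by -7.87 points in the once-divided library (-17.8 to 2.31; adjusted p = 0.692, Fisher's exact test).

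The 6 members of the Dlk1-Meg3 intergenic window were highly methylated in every library. They lie from 110763921 to 110764945, so most of the 7 kb was not measured. Further in, CpGs at 110767054 and 110767078 missed the read minimum. They were methylated in 6 of 7 and 3 of 7 reads in control and in 6 of 7 and 7 of 7 in the much-divided library. The mean of the members was 93.6% in control, 89.1% in the undivided, 93.1% in the once-divided and 94.1% in the much-divided library. The difference of the last from control was 0.515 points (-6.05 to 7.08). The 5 CpGs from 110764887 to 110764945 form a cluster of 59 bp that was methylated in 125 of 130 reads in control, 81 of 90 in the undivided, 175 of 183 in the once-divided and 65 of 69 in the much-divided library. These levels lay between 90% and 96.2% and their Wilson intervals overlap. The much-divided library differed from control by -1.95 points (-10.4 to 4.03; adjusted p = 0.740, Fisher's exact test). The remaining member, at 110763921, was methylated in 62 of 78 reads in control, 72 of 88 in the undivided, 80 of 100 in the once-divided and 38 of 42 in the much-divided library. It was the only intergenic CpG with at least 20 reads in every library. At 79.5% it had the lowest control level among the members of the window. The highest, 100%, was shared by 4 members with 23 to 28 reads each.

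At the Meg3 start, CpGs were between 77.4% and 92.5% in control, and the only feature called was a cluster after the start, which was lower in the much-divided library. The window mean was 87.0% in control, 86.3% in the undivided, 87.4% in the once-divided and 79.5% in the much-divided library. The last differed from control by -7.51 points (-14.5 to -0.544), with 4 of 8 CpGs higher and 4 lower. Some of these CpGs may share fragments, so the interval may be too narrow. The 8 levels of the much-divided library ran from 65.0% to 100%, wider than the range in control. None of the 8 CpGs was called.

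The 3 CpGs that lie 301, 303 and 319 bp after the first transcribed base form a cluster from 110779506 to 110779524. It was methylated in 100 of 111 reads in control (90.1%, 83.1% to 94.4%), 117 of 134 in the undivided (87.3%, 80.6% to 91.9%), 86 of 111 in the once-divided (77.5%, 68.9% to 84.3%) and 40 of 60 in the much-divided library (66.7%, 54.1% to 77.3%). The much-divided library was lowest, and its interval lies apart from those of control and the undivided library but overlaps that of the once-divided library. It differed from control by -23.4 points (-36.7 to -10.7; adjusted p = 0.00290, Fisher's exact test) and from the undivided library by -20.6 points (-34.1 to -8.11; adjusted p = 0.00736). Of all clusters, 11.0% were called lower than control and 11.2% lower than the undivided library. Among autosomal clusters over 70% in the pooled undivided and once-divided reads, the shares were 12.3% and 12.2%. Both calls of the Meg3 cluster were lost when each CpG was thinned to equal coverage (adjusted p = 0.0620 and 0.486) or when counts were scaled down by the overdispersion between control and the once-divided library (adjusted p = 0.0682 and 0.101, Fisher's exact test throughout). The 3 CpGs had 20 reads each in the much-divided library and lie within 19 bp, so the 60 reads of the cluster may be 20 fragments counted at each CpG; no CpG of it passed alone, with adjusted p between 0.377 and 0.459 against control (Fisher's exact test). The once-divided library differed from control by -12.6 points (-22.2 to -2.89; adjusted p = 0.334, Fisher's exact test).

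Closer to the start the levels of the members were high in all 4 libraries. The CpG 74 bp after the first transcribed base was methylated in 81 of 101 reads in control, 102 of 132 in the undivided, 154 of 181 in the once-divided and 41 of 50 in the much-divided library. The CpG 79 bp after it was methylated in 31 of 36, 46 of 50, 46 of 50 and 13 of 13 reads. Before the start, the CpG at 722 bp was at 77.4% in control, 78.5% in the undivided, 98.0% in the once-divided and 80.8% in the much-divided library. It had the lowest control level of the window, and the 20.6-point difference of the once-divided library did not pass the adjusted test (adjusted p = 0.807, Fisher's exact test). The CpG at 700 bp had the highest control level, 92.5%, and was between 87.7% and 96.3% in the other libraries. The CpG at 405 bp was methylated in 78 of 87 reads in control, 28 of 30 in the undivided, 48 of 50 in the once-divided and 10 of 13 in the much-divided library.

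**Figure D3:**
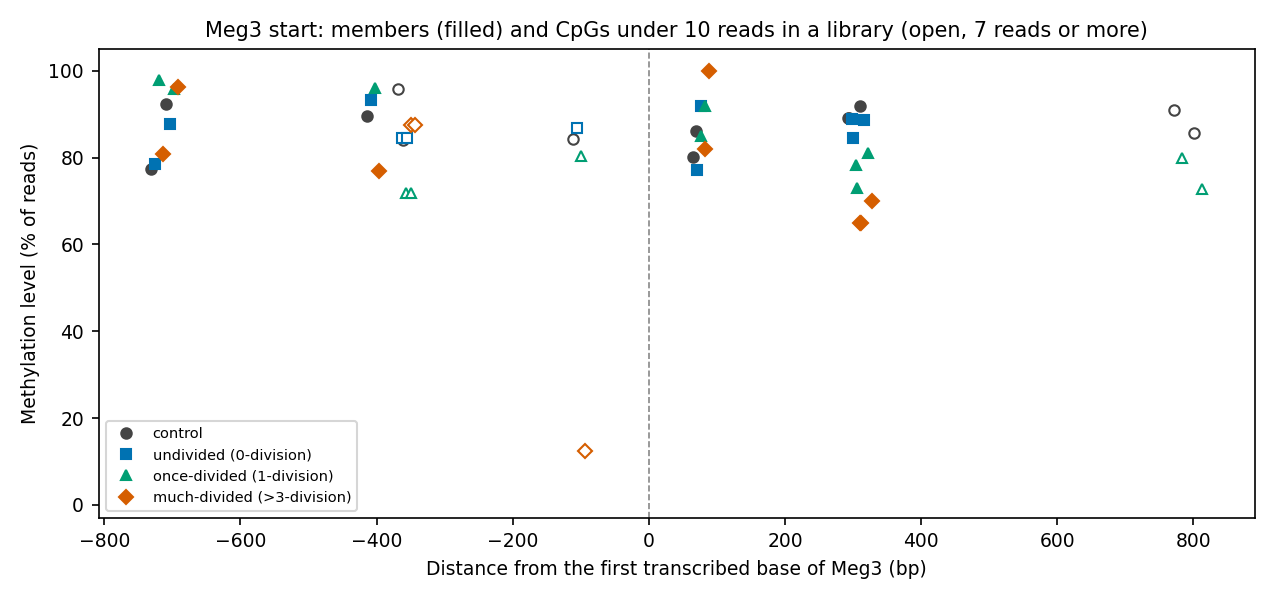
Methylation level (percent of reads, vertical axis) against distance from the first transcribed base of Meg3 (horizontal axis, in bp, with libraries shifted sideways by up to 9 bp to keep symbols apart). Filled symbols are members, open symbols are CpGs with under 10 reads in at least 1 library, and only values on 7 or more reads are drawn; the open symbol of the much-divided library at 103 bp before the start is 1 of 8 reads.

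Around the minimum of 10 reads the values were as follows. Just inside it, the members with 11 reads in the much-divided library were 3 intergenic CpGs at 90.9%, 100% and 100%. Just outside, with 8 reads in that library, was the CpG of the MspI site in the printed Meg3 promoter, 103 bp before the start. It was methylated in 16 of 19 reads in control, 20 of 23 in the undivided, 41 of 51 in the once-divided and 1 of 8 in the much-divided library, the last with a Wilson interval of 2.24% to 47.1%. The 2 CpGs at 359 and 352 bp before the start also had 8 reads in the much-divided library, of which 7 were methylated at each. In the H19 window the CpG at 149764672 was methylated in 26 of 28, 21 of 24, 10 of 10 and 7 of 8 reads in the order of the libraries. CpGs with 8 reads in the much-divided library thus included 1 with a low level and 3 with a high level, and those at 359 and 352 bp may share fragments. With 7 reads in that library, the H19 CpGs at 149764047 and 149767046 were each methylated in 1 read. The intergenic CpGs at 110767054 and 110767078 were methylated in 6 and 7 of 7 reads.

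The Rasgrf1 window held 2 members, both nearly unmethylated. The CpG at 89769449 was methylated in 3 of 62 reads in control, 4 of 53 in the undivided, 0 of 64 in the once-divided and 1 of 77 in the much-divided library. The CpG at 89769528 was methylated in 0 of 90 reads in control, which allows up to 4.09% (Wilson), 2 of 61 in the undivided, 0 of 72 in the once-divided and 0 of 94 in the much-divided library. No level was above 7.55%, and none of the 4 comparisons gave a call. From such levels a loss could not be called, because a call required at least 20 points. Of autosomal CpGs under 10% in the pooled undivided and once-divided reads, few were called in the much-divided library against control. The shares were 0.00722% lower and 0.0109% higher. Of the 16 kb of this window only 5 CpGs were listed in any library, so these 2 members do not describe a methylated upstream region, and the label of a paternally methylated locus could not be checked for Rasgrf1.

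**Figure D4:**
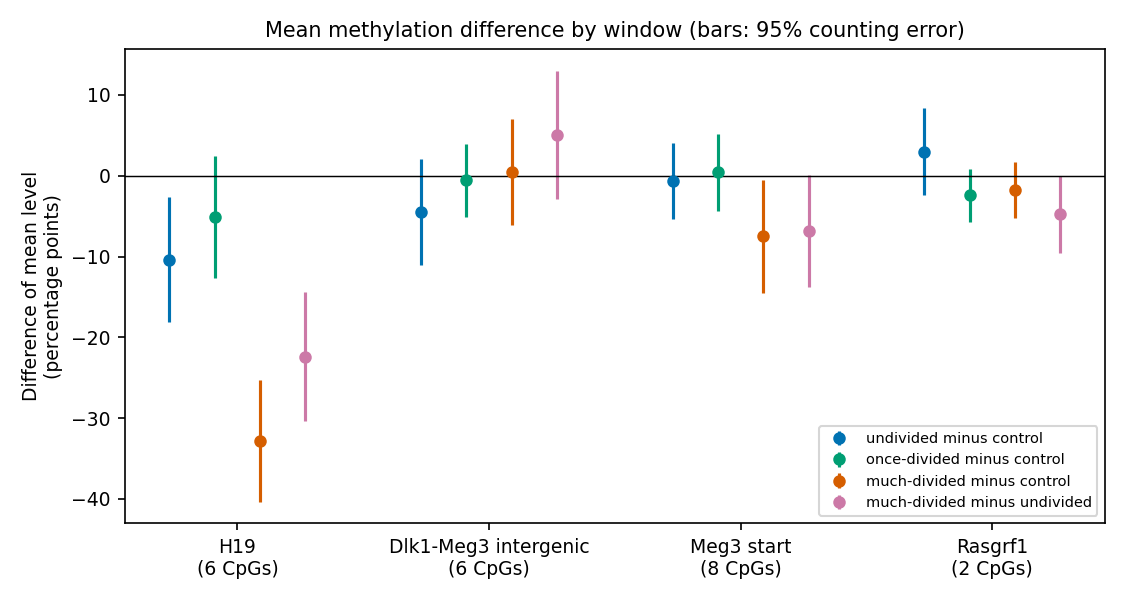
Difference of the mean methylation level in percentage points (vertical axis) for the 4 windows (horizontal axis), in the 4 comparisons between libraries. Points are means with equal weight per CpG, and bars are 95% intervals of counting error that treat CpGs as independent. The H19 window is at -32.8 points in the much-divided library minus control, and the intervals of the intergenic window all include 0.

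The H19 difference was set beside the rest of the genome, where the much-divided library was also lower. All tested CpGs had a mean difference from control of -3.62 points. Autosomal CpGs between 30% and 70% in the pooled undivided and once-divided reads had a mean of -10.1 points and a middle 80% from -34.5 to 11.3 points, and 12.5% of these 97919 CpGs were called lower. For clusters of that class, 32.2% of 11230 were called lower, with a median of -7.42 points. The H19 cluster at -32.4 points lay below the 10th percentile of those clusters, which was -24.3 points. Within 250 kb on either side of the H19 window, 137 tested CpGs at 30% or more in the pooled undivided and once-divided reads differed from control by -7.51 points on average. For the Dlk1-Meg3 windows 138 such CpGs differed by -6.74 points, while the intergenic window differed by 0.51 points and the Meg3 start window by -7.51 points (-12.4 with a minimum of 5 reads). Autosomal CpGs over 70% differed by -5.66 points. Whether the windows differ from each other, or from their surroundings, was not tested.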

How the data were processed

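The authors deposited 1 table per library with 2 whole-number read counts for each CpG, methylated and unmethylated, on mm9 per the submitters' processing notes. RRBS fragments of 40 to 220 bp were selected, per the labels' protocols. The aligner and methylation caller are not stated in the labels, nor whether positions count from 0 or 1, so positions are printed as deposited. The order of the counts was read from the values: the first is mostly 0 in CpG-dense sequence and is the methylated count. RefSeq promoters (GRCm38.p6) were placed by matching the spacing of their CpGs, not by converting coordinates.

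Levels are methylated reads over all reads. A window mean gives each CpG equal weight. Fisher's exact test was run per CpG and per cluster over the whole genome (Python 3.11.15, numba 0.67.0). Its code was also run on simulated reads of CpGs, at the depths of the much-divided library and control. Those reads had no overdispersion and no clusters were simulated, so that run cannot show how many calls in these data are false. The members and lists were chosen with earlier results of these data known. The text names every member cluster, called CpGs and the highest and lowest CpG of each window in control; the remaining members and the CpGs below the read minimum were added after their values were seen. Alternatives were a minimum of 5 or 20 reads, thinning to equal coverage, dropping CpGs past the 99.9th coverage percentile, pooled reads, overdispersion (1.31 for CpGs, 1.69 for clusters) and cluster gaps of 50 or 200 bp.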

Additional observations from a re-analysis of the deposited data

How the results depend on the processing

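Of the window means and counts of called members, 119 values under the alternatives stayed near the reported value and 9 moved. Many of the 119 had little or no room to move. Dropping CpGs of highest coverage removed none of the 22 members. A minimum of 20 reads kept all 6 H19 CpGs, minima of 5 and 20 reads kept the same 2 Rasgrf1 CpGs, and gaps of 50 and 200 bp kept 3 member clusters. No window difference whose interval excluded 0 changed sign. Of those whose interval included 0, the once-divided library's H19 difference of -5.12 points became 0.18 with a minimum of 5 reads, and its Meg3 start difference of 0.41 points became -3.33, -1.50 and -0.83 with minima of 5 and 20 reads and when thinned. In the intergenic window, its -0.54 points became 0.20 with reads pooled and 0.51 with a minimum of 20 reads, and the much-divided library's 0.51 points became -1.94 with a minimum of 5 reads and -0.79 when thinned. With reads pooled, the H19 difference between the much-divided and undivided libraries was -31.8 points in place of -22.4. With a minimum of 20 reads the intergenic window kept 1 CpG, which differed from control by 2.33 points in place of -4.51 in the undivided and by 11.0 points in place of 0.51 in the much-divided library. Called member CpGs in the much-divided library were 1 in place of 3 against control when counts were divided by the overdispersion and 2 when thinned, and 2 in place of 1 against the undivided library with a minimum of 5 reads. Called clusters were 1 in place of 2 against both control and the undivided library when thinned to equal coverage and when counts were divided by the overdispersion; the Meg3 cluster was lost each time, with -21.7 and -11.7 points when thinned, and the H19 cluster was still called. The cause was not tested. The 20 reads per CpG of the Meg3 cluster in the much-divided library limit what it can show. No paired analysis was possible because each group has 1 library.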

Other observations

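Promoters elsewhere in the same imprinted domains were nearly unmethylated in all 4 libraries; they were chosen after it was known which RefSeq promoters had a placement by CpG spacing. At Dio3, a thyroid hormone deiodinase gene in the Dlk1-Meg3 domain, all 24 CpGs listed within the promoter matched the sequence, and the 15 with at least 10 reads in every library averaged 1.40% in control, 2.27% in the undivided, 1.28% in the once-divided and 1.60% in the much-divided library. At 1 of the 4 RefSeq promoters of Igf2, the growth factor gene near H19, all 8 listed CpGs matched and averaged 0.863%, 2.00%, 1.72% and 2.31% in the same order. Among the CpGs of both promoters with at least 10 reads in every library, none was above 12.5% in any library.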
